A study of Mus musculus with 5 samples.

Results

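Immediate early genes are transcribed within minutes of a stimulus without the need for new protein. The 10 genes described here were chosen by symbol from textbook knowledge of this class, with earlier results of these data known. All 10 were found among the 23234 genes listed in each library: Fos, Fosb, Jun, Junb, Jund, Egr1, Ier2, Dusp1, Atf3 and Zfp36. They were measured by RNA-seq in 5 libraries of cells sorted from mouse bone marrow (BM), 1 library for each condition. All cells came from C57BL/6 mice aged 7 weeks that carried the Ym1-Venus reporter allele over a wild-type allele, so that cells making the chitinase-like protein Ym1 (gene Chi3l3) fluoresce with Venus. 3 libraries were made 48 h after intravenous injection of lipopolysaccharide (LPS), a bacterial cell wall component, at 100 µg per mouse. These were Ym1+ Ly6Chi monocytes, sorted as Ly6C+ CD115+ Venus+ cells, Ym1- Ly6Chi monocytes, sorted as Ly6C+ CD115+ Venus- cells, and Ly6G+ neutrophils. The other 2 libraries were naïve monocytes, sorted as Ly6C+ CD115+ Venus- cells, and naïve Ly6G+ neutrophils, both from untreated mice of the same reporter line.

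Fos and Jun proteins pair to form AP-1, a dimeric transcription factor that links kinase signalling to gene expression in myeloid cells after bacterial stimuli. Egr1 and Atf3 are transcription factors induced by the same kinases, and Ier2 is a small nuclear protein of the same early wave. Dusp1, a phosphatase that inactivates mitogen-activated protein (MAP) kinases, and Zfp36 (tristetraprolin), which binds AU-rich elements and directs mRNA decay, end the response. These genes are also known to be induced when cells are dissociated and sorted. No unsorted cells are among the 5 libraries, so transcription during handling and the state of the cells in BM cannot be told apart. The labels name a cell sorter for all 5 libraries, and no source used here describes how the cells of these libraries were prepared before the sort.

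The sequence just upstream of the start site is printed for 4 genes whose levels the results turn on, to show the motifs of signal-dependent factors that lie close to it. Windows of 250 bases before the RefSeq start were read from the RefSeq promoter table of GRCm38.p6, in which 8 of the 10 genes were matched, all but Egr1 and Ier2. The windows are Fos at chr12:85473640-85473889 (+ strand), Dusp1 at chr17:26508473-26508722 (- strand), Atf3 at chr1:191183334-191183583 (- strand) and Zfp36 at chr7:28379229-28379478 (- strand). Each is written 5′ to 3′ on the strand of the gene and ends at the base before the start. Capitals mark matches to the core of the cAMP response element (TGACG on either strand, CREB and ATF factors), the CArG box (serum response factor) and the TATAAA form of the TATA box.
Fos: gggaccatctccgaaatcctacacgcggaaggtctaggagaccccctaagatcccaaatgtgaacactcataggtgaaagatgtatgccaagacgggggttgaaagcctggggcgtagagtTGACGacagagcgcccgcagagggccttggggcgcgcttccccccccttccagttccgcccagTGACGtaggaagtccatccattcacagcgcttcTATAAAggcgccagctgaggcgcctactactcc
Dusp1: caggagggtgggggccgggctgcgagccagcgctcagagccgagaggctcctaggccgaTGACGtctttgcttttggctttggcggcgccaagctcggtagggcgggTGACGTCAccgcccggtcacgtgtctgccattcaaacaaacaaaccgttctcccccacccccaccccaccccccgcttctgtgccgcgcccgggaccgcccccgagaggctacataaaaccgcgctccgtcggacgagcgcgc
Atf3: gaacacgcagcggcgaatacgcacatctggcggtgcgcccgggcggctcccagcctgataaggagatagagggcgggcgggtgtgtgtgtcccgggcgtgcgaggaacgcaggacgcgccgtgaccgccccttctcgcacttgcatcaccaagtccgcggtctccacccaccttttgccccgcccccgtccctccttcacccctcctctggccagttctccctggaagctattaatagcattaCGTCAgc
Zfp36: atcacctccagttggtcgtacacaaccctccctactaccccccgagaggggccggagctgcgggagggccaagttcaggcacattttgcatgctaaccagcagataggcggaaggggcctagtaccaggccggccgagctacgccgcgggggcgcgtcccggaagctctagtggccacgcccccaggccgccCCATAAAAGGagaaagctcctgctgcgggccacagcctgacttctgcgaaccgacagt
In the Fos window TGACG began 129 and 66 bases before the start and TATAAA began 33 bases before it. The Dusp1 window held the full palindrome TGACGTCA at 143 to 136 bases before the start and another TGACG at 191 to 187. The Atf3 window held TGACG on the reverse strand at 7 to 3 bases before the start. The Zfp36 window held a CArG box at 58 to 49 bases before the start and the Egr motif GCGNGGGCG, not in capitals, at 105 to 97. Searched on both strands, TGACG was found in 5 of the 8 matched windows (Fos, Fosb, Junb, Dusp1 and Atf3) and in 17.8% of the 32851 windows of the table. The palindrome TGACGTCA, which contains TGACG, was found in 1 of the 8 (Dusp1) and in 1.55% of all windows, the CArG box in 1 (Zfp36) and 1.47%, GCGNGGGCG in 2 (Fosb and Zfp36) and 4.7%, and TATAAA in 1 (Fos) and 12.4%. TGANTCA, the AP-1 site, was found in 0 of the 8 windows and in 6.75% of all. A match is a run of letters and not a measured binding site, elements farther upstream lie outside the windows, and these windows come from another build than the expression values.

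Levels were taken as the deposited FPKM (fragments per kilobase of transcript, scaled to a fixed number of mapped fragments), a scale per length on which genes can be compared. The steps between the lowest FPKM values put the depth at about 10.4, 4.63, 6.51, 8.39 and 10.1 (in units of 10⁶ fragments) in Ym1+, Ym1- and naïve monocytes, LPS neutrophils and naïve neutrophils, in that order. In the shallowest library, Ym1- monocytes, an FPKM of 10 over a 2 kb transcript then stands for about 84 fragments, with a 95% exact Poisson interval of 7.98 to 12.4. All intervals below rest on these estimated fragments and cover counting error only. No condition has a second library, so nothing could be tested and each difference describes a pair of libraries. Of the 8 monocyte markers, all 8 had an FPKM of at least 1 in the monocyte libraries, 5 in LPS neutrophils and 3 in naïve neutrophils. The chemokine receptor Ccr2 was at 434 to 499 in the monocyte libraries and at 1.13 and 0.986 in LPS and naïve neutrophils. Other markers of the list separated the libraries less. Ly6c2 was at 3029 to 3245 in monocytes and at 1613 and 1377 in LPS and naïve neutrophils, and Cd14 at 10.9 to 12.2 and at 22.1 and 3.11. The 10 neutrophil markers summed to an FPKM of 282216 and 293735 in the neutrophil libraries, and to 14052, 1953 and 1265 in Ym1+, Ym1- and naïve monocytes. Chi3l3, the gene behind the reporter, was at 1759, 386 and 430.03 in Ym1+, Ym1- and naïve monocytes. Low levels of other lineages were present, with summed markers of platelets at 50.8 and of erythroid cells at 25.01 in naïve neutrophils, of eosinophils at 29.4 in Ym1- monocytes, and of progenitors at 24.2 and B cells at 15.4 in naïve monocytes. T cell markers summed to at most 6.37 and NK cell markers to at most 0.020 in every library. As these are bulk samples, fewer cells of a type and less RNA per cell cannot be told apart.

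The 10 genes differed widely in level, and the highest value was an FPKM of 161, for Zfp36 in naïve neutrophils. 7 of them, Fos, Jun, Junb, Jund, Ier2, Dusp1 and Zfp36, had an FPKM of at least 1 in all 5 libraries, Atf3 had one in the 3 monocyte libraries alone, and Fosb and Egr1 had none. Junb, Ier2 and Zfp36 together made up 75.2% to 83.9% of the summed FPKM of the 10 genes, which was 264, 232 and 289 in Ym1+, Ym1- and naïve monocytes and 372 and 434 in LPS and naïve neutrophils. Ranked among all genes that reached an FPKM of 1 in any library, these 3 stood at the 84.2 percentile or higher in every library.

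**Figure D1:**
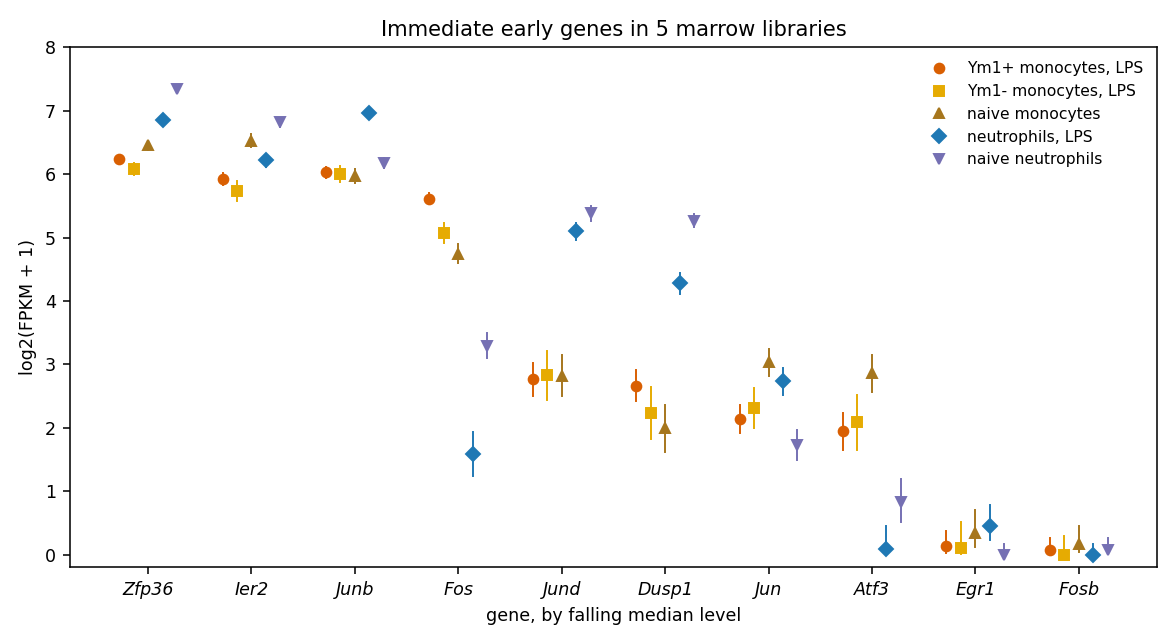
Level of each immediate early gene, as log2(FPKM + 1), in the 5 BM libraries. Each point is 1 library and each bar its 95% Poisson interval, for counting error only. Fos and Atf3 are lowest in the neutrophil libraries, Jund and Dusp1 highest there, and Egr1 and Fosb stay near 0 in all 5.

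Fos, the founding Fos subunit of AP-1, had an FPKM of 48.1 in Ym1+ monocytes, 32.7 in Ym1- monocytes, 25.8 in naïve monocytes, 2.0 in LPS neutrophils and 8.83 in naïve neutrophils. It was high in the 3 monocyte libraries and low in both neutrophil libraries, and no 2 neighbours in this order had overlapping counting intervals. The highest level was 24.0-fold above the lowest, the widest range among the genes expressed in all libraries. The lowest value, in LPS neutrophils, rested on about 32 fragments and had an interval of 1.36 to 2.81. Within its library Fos stood at the 83.4 percentile in Ym1+ monocytes and at the 28.6 percentile in LPS neutrophils.

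Fosb, its close relative, was not detectable above a handful of fragments. Its FPKM was 0.053 in Ym1+ monocytes, 0.128 in naïve monocytes and 0.055 in naïve neutrophils, from about 2, 3 and 2 fragments, and it was listed at 0 in Ym1- monocytes and LPS neutrophils. A value listed at 0 can be a failed estimate in files of this kind, so no limit is drawn from it.

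The Fos family of these cells was made up almost wholly of Fos and Fosl2, another Fos subunit, which was taken from a list of AP-1 genes set beside the 10. Fosl2 had an FPKM of 19.7, 16.1 and 47.7 in Ym1+, Ym1- and naïve monocytes and of 46.3 and 61.7 in LPS and naïve neutrophils. Fos therefore held 70.9% and 67.0% of the summed FPKM of the family in Ym1+ and Ym1- monocytes, 35.1% in naïve monocytes, and 4.11% and 12.5% in LPS and naïve neutrophils. The sum itself ranged only from 48.7 to 73.7. Fosl1 was listed at 0 in 4 libraries and at 0.393 in LPS neutrophils.

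Junb, a Jun subunit, was the most abundant gene of the Jun and Fos families in every library, with an FPKM of 64.2, 63.1 and 61.8 in Ym1+, Ym1- and naïve monocytes, 124 in LPS neutrophils and 71.4 in naïve neutrophils. The counting intervals of the 3 monocyte libraries overlapped, and LPS neutrophils stood above all others. Jund, the Jun subunit least tied to stimulation, had an FPKM of 5.82, 6.15 and 6.08 in the same 3 monocyte libraries, 33.3 in LPS neutrophils and 40.7 in naïve neutrophils. Both neutrophil libraries were thus well above the monocyte libraries, which did not differ beyond counting error. Jun itself (c-Jun) was low everywhere, at 3.39 in Ym1+ monocytes, 3.94 in Ym1- monocytes, 7.24 in naïve monocytes, 5.66 in LPS neutrophils and 2.30 in naïve neutrophils. In this case each library overlapped its neighbour in the order, and the ends of the order differed 3.14-fold.

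As a share of the Jun family, Junb took 87.5%, 86.2% and 82.3% of the summed FPKM in Ym1+, Ym1- and naïve monocytes, 76.1% in LPS neutrophils and 62.4% in naïve neutrophils. Jund took 7.92% to 8.41% in monocytes, 20.4% in LPS neutrophils and 35.6% in naïve neutrophils, while Jun took at most 9.63%. The ratio of Jund to Jun went from 0.841 in naïve monocytes to 17.7 in naïve neutrophils. The Jun family as a whole summed to 73.2 to 75.1 in monocytes, 163 in LPS neutrophils and 114 in naïve neutrophils, and the ratio of Jun family to Fos family was 1.02 to 1.5 in monocytes, 3.35 in LPS neutrophils and 1.62 in naïve neutrophils. Exons of Jun and Jund overlap antisense genes (Junos and Gm11175) on the opposite strand in GENCODE M21, and those of Junb overlap Prdx2. The library kit keeps strand, but the strand setting of the quantification is missing from the sources used here, so reads of the overlapping pairs may have been assigned to either gene. Prdx2 had an FPKM of 90.4 to 142 in monocytes and of 3.72 and 22.0 in naïve and LPS neutrophils, and its part in the Junb values was not tested.

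**Figure D2:**
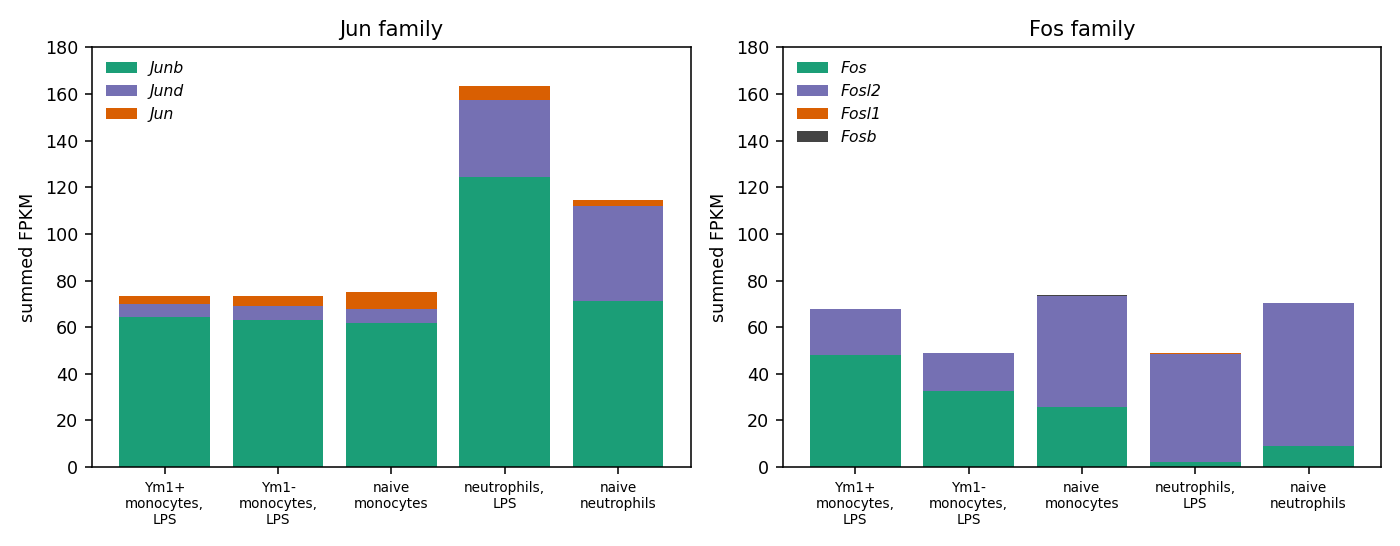
Summed FPKM of the Jun family (left) and the Fos family (right) in each of the 5 libraries, with 1 bar per library divided by gene. The Jun family bars are at 73.2 to 75.1 in monocytes and reach 163 in LPS neutrophils, and the Fos part of the Fos family bars shrinks from 48.1 in Ym1+ monocytes to 2.0 in LPS neutrophils.

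Egr1, a zinc finger transcription factor, was at an FPKM of 0.0999, 0.0745 and 0.265 in Ym1+, Ym1- and naïve monocytes, 0.370 in LPS neutrophils, and was listed at 0 in naïve neutrophils. The largest of these values came from about 9 fragments, so the order of the libraries was not resolved at this depth. Atf3, a repressor of inflammatory genes, had an FPKM of 2.86, 3.26 and 6.26 in Ym1+, Ym1- and naïve monocytes, 0.067 in LPS neutrophils and 0.776 in naïve neutrophils. It was low in monocytes and under 1 in neutrophils, where the values stood for about 1 and 14 fragments.

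Ier2 had an FPKM of 59.8 in Ym1+ monocytes, 52.4 in Ym1- monocytes, 91.5 in naïve monocytes, 73.4 in LPS neutrophils and 112 in naïve neutrophils. On the FPKM scale both naïve libraries were above the 3 LPS libraries, and the whole range was 2.13-fold. This order depended on scaling. Median-of-ratios scaling divides levels by 1.29 in naïve monocytes and by 0.722 in LPS neutrophils, and with it Ier2 was lower in naïve monocytes than in LPS neutrophils. Zfp36 was the highest of the 10 genes in 3 libraries, with an FPKM of 74.5, 66.8 and 86.6 in Ym1+, Ym1- and naïve monocytes, 115 in LPS neutrophils and 161 in naïve neutrophils. Ier2 was higher in naïve monocytes and Junb in LPS neutrophils. On the FPKM scale the range of Zfp36 was 2.40-fold, and both neutrophil libraries were above all monocyte libraries. The FPKM of all genes summed to 775532 in LPS neutrophils and 536819 in naïve monocytes. With FPKM brought to the same total in every library, Zfp36 was lower in LPS neutrophils than in naïve monocytes. Dusp1 had an FPKM of 5.33, 3.69 and 2.97 in Ym1+, Ym1- and naïve monocytes, 18.4 in LPS neutrophils and 37.5 in naïve neutrophils, a 12.6-fold range. The Ym1- library did not differ from either of the other 2 monocyte libraries beyond counting error, and both neutrophil libraries stood above them. Exons of Dusp1 overlap Ergic1 and those of Zfp36 overlap Gm44710 on the opposite strand, so the limit given for the Jun genes holds here too.

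Ym1+ and Ym1- monocytes were sorted from mice that had both received LPS, so their comparison asks how the reporter-marked subset differs. Differences are given on the scale of log2(FPKM + 1), which understates the change of low genes, for genes that reached an FPKM of 1 in either library, and a gene was counted as higher or lower when it was at least 2-fold apart on that scale. Of 8 immediate early genes that passed the filter, 0 were higher and 0 lower in Ym1+ monocytes, while 2.56% of all 10489 genes tested were apart, 1.38% higher and 1.18% lower. The median difference was 0.09 for the 8 genes and -0.06 for all genes. The largest was that of Fos, 0.54, with a ratio of FPKM of 1.47 (95% counting interval 1.29 to 1.68). Zfp36 had a ratio of 1.12 (1.03 to 1.21) and Ier2 of 1.14 (1.002 to 1.30), and the intervals of Dusp1 (ratio 1.44, 0.951 to 2.22), Jun (0.861, 0.614 to 1.21), Junb (1.02, 0.913 to 1.14), Jund (0.946, 0.646 to 1.40) and Atf3 (0.877, 0.540 to 1.44) included 1. Other measures also moved between these libraries. The summed neutrophil markers were at 14052 in Ym1+ against 1953 in Ym1- monocytes and the summed macrophage markers at 118 against 60.2, with 6 and 5 of the 6 macrophage markers at an FPKM of at least 1. Fos was at 2.0 in LPS neutrophils, below both monocyte libraries. The part of these markers in the Fos difference was not tested.

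For monocytes after LPS, each LPS subset was set against naïve monocytes, and both comparisons share the naïve library. Ym1+ monocytes differ from the naïve cells in the Venus gate as well as in LPS, and these cannot be told apart. In Ym1- monocytes, which had the same Venus- gate as the naïve cells, 0 of 8 genes were higher and 0 lower than in naïve monocytes, beside 7.58% of all 10714 genes, 2.86% higher and 4.72% lower. In Ym1+ monocytes the counts were again 0 and 0 of 8, beside 7.1% of 10698 genes, 2.59% higher and 4.51% lower, but 2 genes (Atf3 and Jun) were lower with TPM (FPKM brought to the same total in every library) and with a pseudocount of 0.1. The median difference of the 8 genes was -0.18 in Ym1- and -0.13 in Ym1+ monocytes, beside -0.00 and -0.06 for all genes. Below this 2-fold limit the genes did not move in 1 direction. Fos was at 0.33 in Ym1- (ratio of FPKM 1.27, 1.07 to 1.49) and at 0.87 in Ym1+ monocytes (1.86, 1.64 to 2.12), both on the side of LPS. Jun was at -0.74 and -0.91, with naïve monocytes 1.84-fold (1.33 to 2.54) above Ym1- and 2.13-fold (1.64 to 2.76) above Ym1+ monocytes in FPKM. Atf3 was at -0.77 and -0.91, with naïve monocytes 1.92-fold (1.22 to 3.11) above Ym1- and 2.19-fold (1.52 to 3.19) above Ym1+ monocytes in FPKM. Ier2 was at -0.79 and -0.61, with naïve monocytes 1.75-fold (1.53 to 1.99) and 1.53-fold (1.39 to 1.69) above. Dusp1 was at 0.24 in Ym1- (ratio 1.24, 0.743 to 2.08) and 0.67 in Ym1+ monocytes (1.79, 1.21 to 2.71), and Zfp36 at -0.37 and -0.21. Junb and Jund lay between -0.06 and 0.05, and the sign of Jund in both comparisons and of Junb in Ym1- monocytes changed with the scaling. Markers of other cells and states moved in these pairs too. In naïve, Ym1- and Ym1+ monocytes the summed progenitor markers were at 24.2, 5.39 and 1.24, and the neutrophil markers at 1265, 1953 and 14052. The neutrophil markers did not all move alike from naïve to Ym1- monocytes. S100a8 (595 to 1107), S100a9 (331 to 648), Mmp8 and Cxcr2 rose. Ltf (23.2 to 9.01), Ngp (113 to 46.2), Camp, Csf3r, Mmp9 and Retnlg fell. In naïve, Ym1- and Ym1+ monocytes the summed macrophage markers were at 48.8, 60.2 and 118, and the monocyte markers at 4487, 4085 and 3874. Within the macrophage list C1qa, C1qb, C1qc and Vcam1 rose in that order, C1qb from 0.177 to 14.7 and 31.7. Emr1, at 45.4, 33.7 and 44.8, and Mrc1, at 2.11, 1.04 and 2.35, were lowest in Ym1- monocytes. Within the monocyte list Cx3cr1, a receptor that increases as monocytes mature, was at 88.0, 19.8 and 8.38. Fcgr1 went the other way, at 17.9, 49.8 and 48.5, and Ccr2 was at 499, 434 and 439. Their part in the values of the immediate early genes was not tested.

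Neutrophils 48 h after LPS were compared with naïve neutrophils in the same way. Of 7 genes that passed the filter, 1 was higher (Jun) and 1 lower (Fos), beside 14.3% of all 9583 genes, 8.96% higher and 5.35% lower. The difference of Fos was -1.71, with naïve neutrophils 4.42-fold above in FPKM (3.03 to 6.69), and 1.29% of all genes tested had a lower value. Markers of other cells moved in the same pair, in both directions. The summed macrophage markers were at 15.3 in LPS and 31.2 in naïve neutrophils, and the platelet markers at 2.94 and 50.8. Of the macrophage list Emr1 alone went the other way, at 8.07 and 6.71. The summed monocyte markers were at 1650 and 1416, of which Ly6c2 alone made up 1613 and 1377. Within that list Csf1r, the receptor for M-CSF, was at 10.5 and 33.9, and Cd14 at 22.1 and 3.11. The part of these markers in the Fos difference was not tested. Jun had a difference of 1.01, just past the limit, with an FPKM ratio of 2.46 (1.82 to 3.30). Junb was at 0.79 (ratio 1.74, 1.62 to 1.88), under the limit. The remaining 4 genes were below 0, Dusp1 at -0.99, Ier2 at -0.60, Zfp36 at -0.48 and Jund at -0.28, and the median of the 7 was -0.48 beside 0.07 for all genes. Dusp1 was just inside the limit, with naïve neutrophils 2.04-fold above in FPKM (1.77 to 2.35). With the values rescaled to TPM 0 genes were higher and 2 lower (Dusp1 and Fos), while Jun no longer passed the limit.

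**Figure D3:**
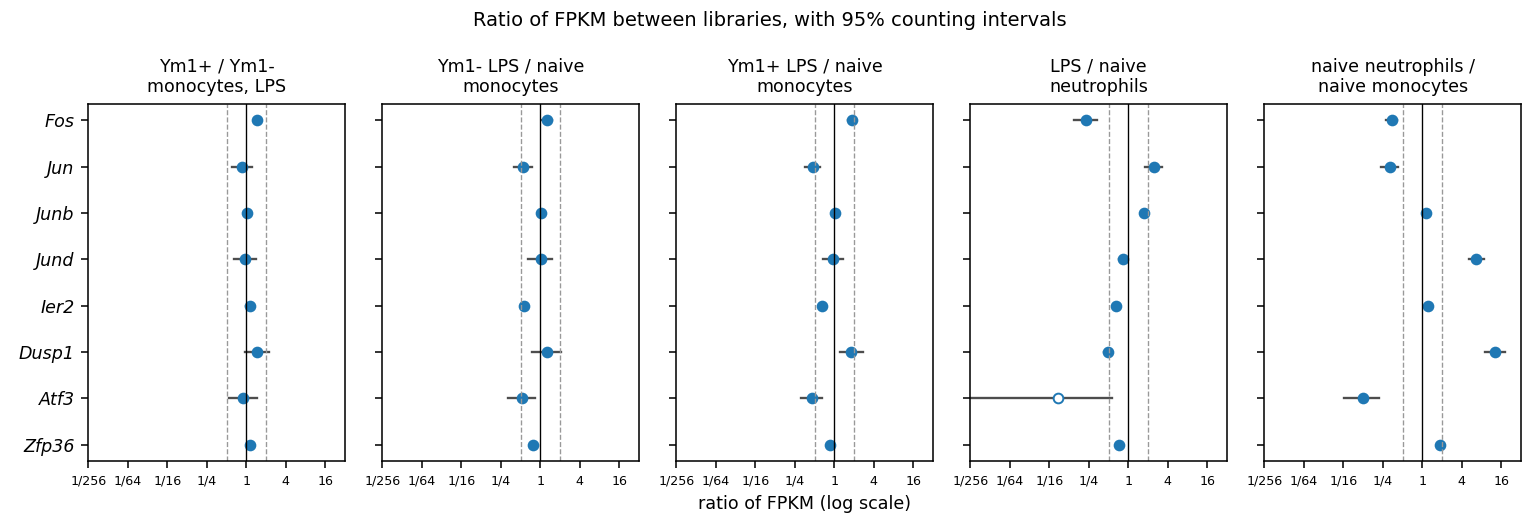
Ratio of FPKM between the 2 libraries named above each panel, on a log scale, for the 8 immediate early genes that reached an FPKM of 1 in any library. Points are ratios and bars 95% counting intervals, the dashed lines mark 2-fold, the open point (Atf3, 1 against 14 fragments) did not pass the filter and its bar runs past the axis. Ratios spread least between Ym1+ and Ym1- monocytes (0.861 to 1.47) and most between naïve neutrophils and naïve monocytes, where Dusp1 is at 12.6.

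Naïve neutrophils and naïve monocytes give the difference between the cell types without LPS, and share a library with each of the LPS comparisons above. Of 8 genes, 2 were higher in neutrophils (Dusp1 and Jund) and 3 lower (Atf3, Fos and Jun), where 53.6% of all 10944 genes were apart, 10.8% higher and 42.7% lower. Dusp1 was 12.6-fold higher in FPKM (8.95 to 18.2) and Jund 6.68-fold higher (5.07 to 8.82). Zfp36 was 1.85-fold higher (1.75 to 1.97), under the limit at 0.88. Naïve monocytes had 2.93-fold more Fos (2.43 to 3.55), 3.14-fold more Jun (2.33 to 4.22) and 8.08-fold more Atf3 (4.52 to 15.5). Ier2 (1.22-fold) and Junb (1.16-fold) were slightly higher in neutrophils as FPKM and slightly lower after rescaling to TPM, with differences of -0.12 and -0.20.

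This comparison depended on scaling more than the others. S100a8 and S100a9, the subunits of calprotectin, alone took 30.0% of the FPKM of naïve neutrophils and 0.17% of that of naïve monocytes, and the median difference of all genes was -0.79. With median-of-ratios scaling, which raises neutrophils by 0.84 on the log2 scale relative to monocytes, that median became -0.03 and of the genes past 2-fold 48.0% were higher, against 20.2% as FPKM. The immediate early genes then had 5 higher (Dusp1, Ier2, Junb, Jund and Zfp36) and 1 lower (Atf3), where 2428 of all genes were higher and 2634 lower on that scale. Relative to the median of all genes on the FPKM scale, Dusp1 stood 4.06, Jund 3.34, Zfp36 1.67, Ier2 1.07 and Junb 0.99 above, and Jun 0.53, Fos 0.66 and Atf3 1.25 below.

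**Figure D4:**
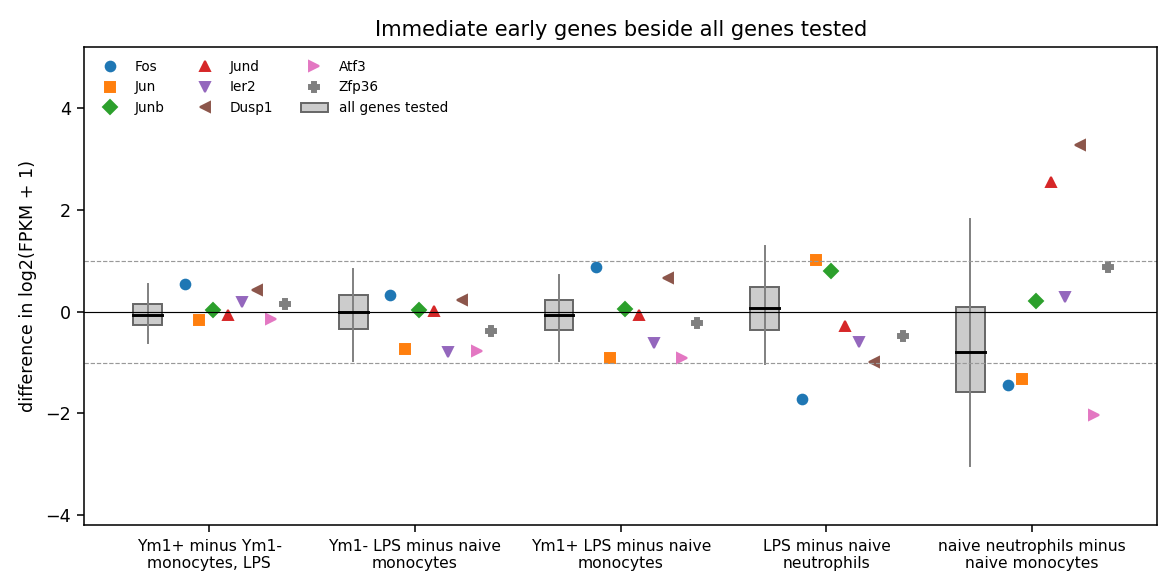
Difference in log2(FPKM + 1) of each immediate early gene that passed the filter, in 5 pairs of libraries, beside all genes tested (box, middle 50% of genes; black line, median; whiskers, 5th to 95th percentile). The dashed lines mark 2-fold. The points stay inside the lines in all 3 monocyte comparisons, and in naïve neutrophils against naïve monocytes the box lies below 0 with a median of -0.79.

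Other genes of the same pathways were set beside the 10, in lists that carry no test. The nearest in kind were 27 other early response genes. In Ym1- against naïve monocytes 1 of 19 of them tested was higher and 6 lower, with a median of -0.56, beside 2.86% and 4.72% of all genes and a median of -0.00. Among the lower genes the orphan receptor Nr4a1 was at an FPKM of 9.03 against 29.0, the small GTPase Rhob at 15.7 against 43.0, Klf2 at 24.1 against 60.2 and Btg2 at 15.1 against 36.3. In Ym1+ monocytes the count was again 1 higher and 6 lower of 19, beside 2.59% and 4.51% of all genes. In LPS against naïve neutrophils 1 of 18 was higher (Csrnp1, 14.2 against 5.81) and 2 lower (Btg1, 31.3 against 87.0, and Gadd45b, 13.2 against 27.8), beside 8.96% and 5.35% of all genes. In naïve neutrophils against naïve monocytes 10 of 21 were higher and 6 lower, beside 10.8% and 42.7% of all genes, and the median of 0.996 became 1.82 with median-of-ratios scaling. The largest difference was that of Klf4, a factor of the monocyte lineage, at 0.104 against 125.

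Of the 11 other AP-1 subunits, 9 were tested in monocytes, and 1 (Fosl2) was lower in both LPS subsets than in naïve monocytes, beside 4.72% of all genes in Ym1- and 4.51% in Ym1+ monocytes. Jdp2, a repressor that pairs with Jun proteins, was at 99.5 in naïve neutrophils and 12.9 in naïve monocytes. Of the 8 other MAP kinase phosphatases, relatives of Dusp1, 4 were tested in monocytes and 3 were lower in each LPS subset than in naïve cells, beside the same 4.72% and 4.51% of all genes, among them Dusp7 (12.7 in Ym1- against 39.1 in naïve monocytes) and Dusp6 (11.5 against 27.2), which acts on ERK kinases. Dusp6 was also lower in LPS neutrophils, at 18.5 against 75.4, where Dusp1 was at 18.4 against 37.5. Of the relatives of Zfp36, Zfp36l1 was at 12.6 in Ym1- and 1.04 in naïve monocytes and at 34.0 in LPS and 7.59 in naïve neutrophils, whereas Zfp36l2 was at 88.1 in Ym1- and 207 in naïve monocytes. Zfp36 itself was under 2-fold apart in these pairs.

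Transcripts with AU-rich elements that Zfp36 is known to bind were mostly below the filter in monocytes, with 5 of 13 tested in Ym1- against naïve monocytes. In naïve neutrophils against naïve monocytes 3 of 6 tested were higher and 2 lower, beside 10.8% and 42.7% of all genes. Il1b was at 121 against 0.677, Ier3 at 28.6 against 2.40 and Tnf at 24.0 against 6.77, while Ccl3 was lower, at 1.34 against 11.2. After LPS Il1b was at 28.4 in neutrophils. The 22 kinases and transcription factors upstream of the immediate early genes had 0 of 22 past 2-fold in the LPS comparisons of both cell types, where 7.58%, 7.1% and 14.3% of all genes were past it in Ym1- monocytes, Ym1+ monocytes and neutrophils. Between naïve neutrophils and naïve monocytes 1 was higher and 5 lower, beside 10.8% and 42.7% of all genes, among them Elk3 (2.14 against 20.5), a partner of serum response factor. Heat shock genes, which also respond to handling, had 4 of 12 tested higher and 0 lower in Ym1- against naïve monocytes, with Hsp90aa1 at 310 against 116 and Hsph1 at 28.2 against 10.5, beside 2.86% and 4.72% of all genes. In Ym1+ against naïve monocytes 0 of 12 were past 2-fold, beside 2.59% of all genes higher and 4.51% lower. The median of the list there was 0.30 beside -0.06 for all genes, and Hsp90aa1, at 230 against 116, was just under the limit at 0.97. In LPS neutrophils 2 of 10 were higher, beside 8.96% of all genes. In naïve neutrophils 7 of 10 were lower than in naïve monocytes, with Hspe1 at 3.83 against 76.0, where 42.7% of all genes were lower. The median of this list there was -2.39 beside -0.79 for all genes, and -1.56 beside -0.03 with median-of-ratios scaling. The part of handling in these values or in those of the immediate early genes was not tested.

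**Figure D5:**
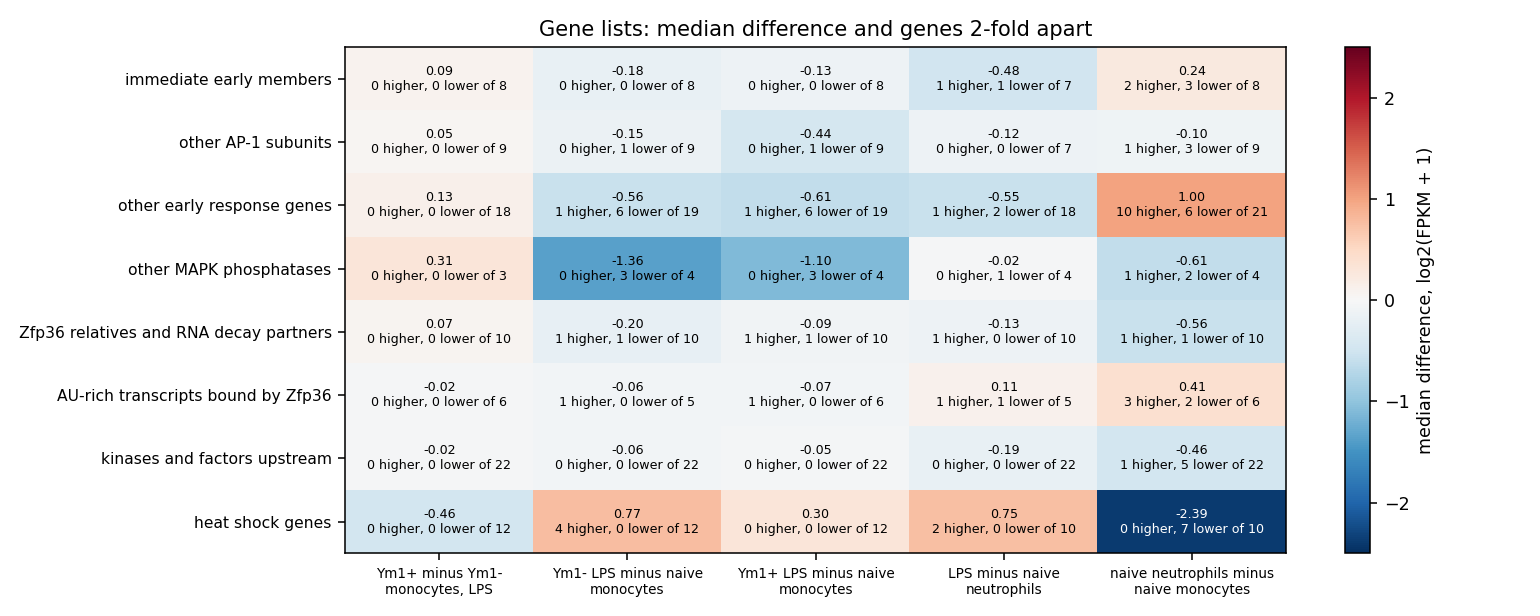
Median difference in log2(FPKM + 1) for the immediate early genes and 7 other gene lists (rows) in 5 pairs of libraries (columns), as colour and as the upper number of each cell, with the genes at least 2-fold higher or lower of those tested. The immediate early genes have medians between -0.48 and 0.24, and the heat shock genes have the lowest median, -2.39, in naïve neutrophils against naïve monocytes.

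The 8 genes that reached an FPKM of 1 in any library differed in pattern, and Fosb and Egr1 were too low to compare. Over the 5 libraries, the distance of a gene's centred log2(FPKM + 1) profile from the mean profile of these 8 genes was 0.50 for Ier2, 0.66 for Zfp36 and 0.92 for Junb, and rose to 2.36 for Atf3, 2.40 for Jund, 2.55 for Dusp1 and 3.44 for Fos. That mean profile was nearly flat, since genes high in neutrophils and genes high in monocytes cancel in it. Of 7166 other genes that reached an FPKM of 10 in any library, the 5 nearest to it were Gm7609 (distance 0.054), Fes (0.069), Arpc2 (0.087), Fgfr1op2 (0.089) and Rp9 (0.095). The kinase gene Fes, for example, was at an FPKM of 163, 155 and 187 in Ym1+, Ym1- and naïve monocytes and of 182 and 229 in LPS and naïve neutrophils. Nearest to Fos alone were Rdm1 (0.906), Nt5dc2 (0.911) and Xist (0.927), all farther from Fos than those 5 genes were from the mean profile. Rdm1 had an FPKM of 16.9, 20.8 and 16.5 in Ym1+, Ym1- and naïve monocytes and of 1.45 and 6.26 in LPS and naïve neutrophils, so even the nearest gene did not share the high Ym1+ value of Fos.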

How the data were processed

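RNA from sorted BM cells was sequenced as 5 libraries, 1 per condition, and conditions were taken from the titles and treatment labels, since the treatment text, with LPS, is the same for all 5. The authors deposited FPKM values for 23234 gene symbols per library, made with TopHat2 2.0.8 and Cufflinks 2.1.1 on the build mm9 according to the submitters' processing notes. The annotation and options are missing from the sources used here. Because FPKM is scaled by length and depth, count models were not applied, and genes of high abundance lower the FPKM of all others in their library. The 10 genes and the lists beside them were chosen with earlier results of these data known.

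Differences of log2(FPKM + 1) were taken in 5 pairs of libraries for genes that reached an FPKM of 1 in either, and those 2-fold or more apart were counted. Depth was estimated as the value at which low FPKM of 3448 genes with a single GENCODE M21 transcript stand for whole fragments. Of the values between 0.5 and 1.5 fragments, 60.0% to 72.1% lay within 10% of 1. Counting intervals are exact Poisson for a level and exact binomial (Clopper-Pearson) for a ratio. All 10 genes are named, and of other lists 2 to 4 genes with the largest difference among those that reached an FPKM of 10. Alternatives were a pseudocount of 0.1, other filters, TPM, median-of-ratios scaling and a 4-fold threshold. The steps were checked on simulated data, and Python 3.11.15, numpy 2.4.6, pandas 2.3.3, scipy 1.17.1 and matplotlib 3.10.9 were used. Promoter windows are from RefSeq on GRCm38.p6.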

Additional observations from a re-analysis of the deposited data

Results flagged for a closer look

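Fos and Jun lay in opposite directions after LPS in Ym1- monocytes and in neutrophils, with counting intervals of the FPKM ratio that excluded 1 in both cell types. For Fos the difference in log2(FPKM + 1) between LPS and naïve cells was 0.33 in Ym1- monocytes and -1.71 in neutrophils. For Jun it was -0.74 in Ym1- monocytes and 1.01 in neutrophils. Dusp1 (0.24 and -0.99) and Jund (0.01 and -0.28) also differed in sign, but in Ym1- monocytes their intervals included 1. With 1 library per condition neither difference between the cell types was tested.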

How the results depend on the processing

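No paired analysis was possible because each condition has 1 library, and no replicate could be left out. Of 117 differences of single immediate early genes that passed the filter, under another pseudocount, TPM or median-of-ratios scaling, 0 reversed where the gene was past 2-fold and 15 moved by more than the counting error of the ratio. Of 33 differences below the filter 20 moved by over 1.5 times, for example Atf3 in neutrophils from -0.74 to -2.39 and Egr1 there from 0.45 to 2.23 with a pseudocount of 0.1. Of 60 counts of these genes under all alternatives, 49 kept their value within 1.5 times and 11 moved. In Ym1+ against naïve monocytes 2 genes rather than 0 were lower (Atf3 and Jun) with a pseudocount of 0.1 and with TPM. In LPS against naïve neutrophils 2 genes rather than 1 were lower (Dusp1 and Fos) with a pseudocount of 0.1, TPM or median-of-ratios scaling and 0 at 4-fold, and 0 rather than 1 were higher with TPM and at 4-fold. In naïve neutrophils against naïve monocytes 5 rather than 2 were higher and 1 rather than 3 lower with median-of-ratios scaling, and 1 was lower at 4-fold. The 4-fold threshold can only lower a count, and the cause of the other changes was not tested. Below 2-fold the sign changed with TPM for Junb and Jund in Ym1- against naïve monocytes (-0.05 and -0.06) and for Junb and Ier2 in naïve neutrophils against naïve monocytes (-0.20 and -0.12), and with median-of-ratios scaling for Jund in Ym1+ against naïve monocytes (0.02).

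Over all genes, a pseudocount of 0.1 gave 264 higher and 297 lower in Ym1+ against Ym1- monocytes (145 and 124 as reported), 487 and 808 in Ym1- against naïve monocytes (306 and 506), 820 lower in Ym1+ against naïve monocytes (483) and 860 lower in LPS against naïve neutrophils (513). A filter at an FPKM of 5 gave 96 and 71 in the first comparison. TPM gave 228 and 197 there, 785 lower in Ym1- and 732 lower in Ym1+ against naïve monocytes, and a split of 801 higher and 766 lower rather than 859 and 513 in neutrophils. Median-of-ratios scaling gave 80 lower in the first comparison and 2428 higher and 2634 lower rather than 1184 and 4678 between the naïve cell types. At these depths, Fosb, Egr1 and, in neutrophils, Atf3 were limited by 14 fragments or fewer.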
